A study of Mus musculus with 4 samples.

Results

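The glypican genes Gpc1 to Gpc6 and the heparan sulfatase genes Sulf1 and Sulf2 were followed in the H3K27me3 CUT&RUN data of mouse yolk sac erythro-myeloid progenitors (EMPs). The 8 genes were chosen by name out of 22028 annotated protein-coding genes, with earlier results of these data known. Every peak that lay in one of them or within 10 kb was collected from the peak lists. H3K27me3, trimethylation of lysine 27 on histone H3, is placed by Polycomb repressive complex 2, of which Ezh2 is a catalytic subunit. CUT&RUN cuts chromatin at the antibody-bound mark, and the released fragments are sequenced.

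One library came from 500 EMPs and one from 15000 EMPs. Both were made from cells sorted as KIT+, CD41+ and CD16/32+ from E10.5 embryos on a C57BL/6 background. The labels call both samples wild type and give floxed Ezh2 and Tie2-Cre in the same field, so which alleles the embryos carried cannot be told from them. The paper describes the cells of both libraries as WT EMPs. Tie2-Cre drives recombination in endothelium and in the blood cells that arise from it. IgG libraries of 500 and 15000 EMPs were also sequenced and served as background for peak calling; they were not analysed here. Each group had 1 library, so no value has a replicate error and no test between the libraries was possible. The lists hold the positions of peaks without heights or read counts, so the depth behind each peak is unknown. The study's reporting summary lists fewer reads and a far lower alignment rate for the library of 500 EMPs, and the ratios of covered length below were not adjusted for this. The libraries also differed in PCR cycles (17 and 16), read length (76 and 59 bp), sequencing instrument and the P threshold of the peak caller (0.01 and 0.05), and neither these nor the depth can be told apart from the number of cells.

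Glypicans are heparan sulfate proteoglycans that a glycosylphosphatidylinositol anchor holds on the outer cell surface. Their sulfated sugar chains bind Wnt, Hedgehog, BMP and FGF ligands and so set how far these travel and how well they reach their receptors. Sulf1 and Sulf2 are extracellular sulfatases that remove 6-O-sulfate groups from those chains, which loosens the hold on Wnt ligands and weakens FGF signalling. H3K27me3 is commonly found around the CpG-rich starts of developmental genes that a cell type keeps silent.

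With 500 EMPs, 8 of 10223 peaks lay in or near 6 of the 8 genes. With 15000 EMPs, 13 of 15282 peaks lay in or near all 8 genes. The share of all protein-coding genes with a peak at that distance was 15.0% with 500 EMPs and 24.9% with 15000 EMPs. By the distance in the deposited annotation, which runs from a peak to the nearer end of the gene, peaks of 500 EMPs lay within 3 kb of 5 of the 8 genes (Gpc1, Gpc4, Gpc5, Sulf1 and Sulf2), against 9.69% of all protein-coding genes. With 15000 EMPs it was 7 of 8 (the same 5 genes, Gpc3 and Gpc6), against 16.6%. Measured from the annotated gene start, the counts were again 5 and 7 genes, against 9.88% and 16.9%. At a limit of 1 kb the counts fell to 2 of 8 with 500 EMPs (Gpc1 and Sulf2) and 4 of 8 with 15000 EMPs (Gpc1, Gpc5, Sulf1 and Sulf2) by either measure. All protein-coding genes stood at 7.41% and 14.9% by the deposited distance and at 7.36% and 15.2% by the gene start. Gpc2 was the one gene that no row of the annotation named and that had no peak within 3 kb of its start in 15000 EMPs or 500 EMPs. The 8 genes were not a random draw, so these shares describe them and were not tested.

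Of the 8 peaks of 500 EMPs, 7 lay wholly downstream of the gene start, between 665 and 3211 bp past it, and 1 lay upstream, at Sulf2. The share of peaks lying wholly downstream was not counted over all genes, so the 7 of 8 has no background. Coverage of bases is another measure. Over all protein-coding genes with a peak of 500 EMPs within 3 kb, 24.7% of bases lay in a peak in the bin centred at -700 bp. In the bin at 1300 bp it was 28.9%, so both sides were covered. No peak of 500 EMPs covered the first base of a member, and 1.4% of all protein-coding genes, or 14.1% of those with a peak within 3 kb of the start, had that base covered. With 15000 EMPs the first base lay in a peak at 4 genes (Gpc1, Gpc5, Sulf1 and Sulf2). The share was 8.59% over all protein-coding genes and 50.8% over those with a peak within 3 kb, so 4 of the 7 marked members was near that background. The widths of the members' peaks ran from 137 to 708 bp (median 367.5 bp) with 500 EMPs, where the median of the whole list was 363 bp. With 15000 EMPs they ran from 311 to 3433 bp (median 1789 bp), where the median of the list was 770 bp. The lists hold peaks wherever they lay, and the peak of 1789 bp lay across the start of another gene, Gal3st4. Among genes with a start peak in 15000 EMPs, the median covered length within 3 kb was 2624 bp for members and 2743 bp for all.

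**Figure D1:**
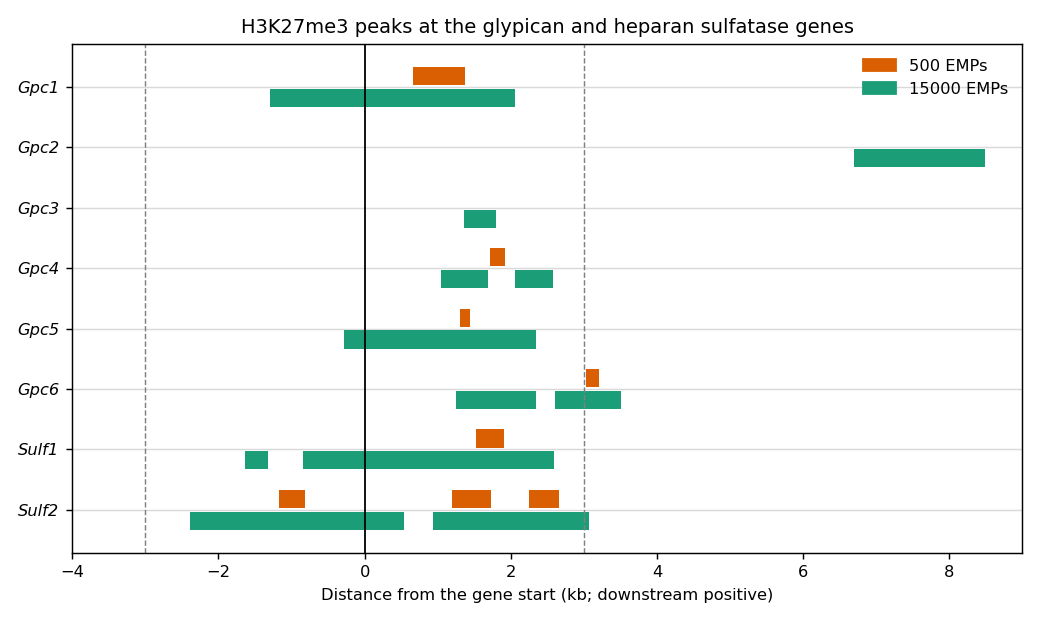
Peaks of 500 EMPs (orange, upper bar) and 15000 EMPs (green, lower bar) at each gene, by distance in kb from the annotated gene start with downstream to the right; dashed lines mark 3 kb. Orange bars sit downstream of the start at 5 genes and on both sides at Sulf2, and Gpc2 has only a green bar past its end (a green peak of Gpc1 at 15385 to 18346 bp lies outside the plot).

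The sequences below show promoters inside and outside the peaks of 15000 EMPs. No member's promoter in the promoter table overlapped a peak of 500 EMPs. They are RefSeq promoters of GRCm38.p6 (250 bases before to 50 after the transcript start), written 5′ to 3′ along the gene with CpG dinucleotides in capitals. The Gpc5 and Sulf2 promoters lay wholly inside a peak of 15000 EMPs, while those of the X-linked genes Gpc3 and Gpc4 lay outside every peak. The Sulf2 promoter printed is that of an alternative start downstream, and the one that holds the annotated gene start is not printed.
Gpc5 promoter, chr14:115091965-115092264, plus strand: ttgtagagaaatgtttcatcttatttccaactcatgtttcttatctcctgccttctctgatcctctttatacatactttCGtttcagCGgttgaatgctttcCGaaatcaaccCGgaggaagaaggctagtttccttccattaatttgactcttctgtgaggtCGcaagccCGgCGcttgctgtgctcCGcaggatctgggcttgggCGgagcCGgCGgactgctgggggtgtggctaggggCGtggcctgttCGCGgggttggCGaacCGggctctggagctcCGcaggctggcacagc
Sulf2 promoter, chr2:166155236-166155535, minus strand: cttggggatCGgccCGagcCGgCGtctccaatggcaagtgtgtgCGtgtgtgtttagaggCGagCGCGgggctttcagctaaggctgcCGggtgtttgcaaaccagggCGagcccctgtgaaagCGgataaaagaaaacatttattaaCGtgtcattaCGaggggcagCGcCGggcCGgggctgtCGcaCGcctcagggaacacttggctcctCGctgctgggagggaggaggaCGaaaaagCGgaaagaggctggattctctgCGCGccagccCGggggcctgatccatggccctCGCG
Gpc3 promoter, chrX:52613925-52614224, minus strand: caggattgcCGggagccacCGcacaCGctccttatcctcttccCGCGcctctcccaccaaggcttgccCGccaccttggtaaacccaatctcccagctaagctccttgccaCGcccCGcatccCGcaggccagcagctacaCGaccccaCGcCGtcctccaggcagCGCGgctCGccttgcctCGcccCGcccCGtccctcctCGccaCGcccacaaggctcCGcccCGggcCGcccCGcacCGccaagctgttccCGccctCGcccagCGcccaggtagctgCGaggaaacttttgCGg
Gpc4 promoter, chrX:52164874-52165173, minus strand: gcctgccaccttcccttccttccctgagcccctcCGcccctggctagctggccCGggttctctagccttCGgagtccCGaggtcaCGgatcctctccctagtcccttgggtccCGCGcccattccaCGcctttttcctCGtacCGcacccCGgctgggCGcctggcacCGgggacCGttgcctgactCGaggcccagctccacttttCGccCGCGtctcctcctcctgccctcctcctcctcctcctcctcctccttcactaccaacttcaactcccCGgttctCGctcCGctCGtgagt

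The promoter table held 6 promoters of 5 members. Gpc1, Gpc6 and Sulf1 had no entry. The Gpc3 promoter held 30 CpG dinucleotides and the Gpc4 promoter 22. The Gpc2 promoter, which also lay outside every peak, held 26. The covered promoters held 17 at Gpc5, and 26 and 12 at the alternative starts of Sulf2. The median over 32851 promoters was 7, with the middle of the distribution between 3 and 20, and 94.6% held at least 1. So all 6 member promoters had more CpG than the median promoter, whether or not a peak lay on them, and the counts of covered and uncovered promoters overlapped.

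**Figure D2:**
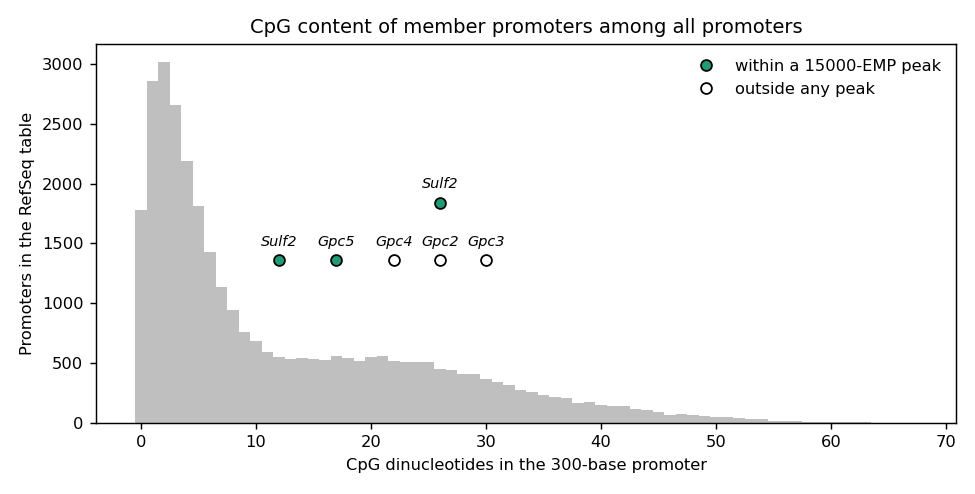
Number of RefSeq promoters (grey bars, y axis) by their count of CpG dinucleotides (x axis), with the 6 member promoters as points whose height has no meaning; green points lay within a peak of 15000 EMPs and white points in no peak. The white points (Gpc4, Gpc2 and Gpc3) stand at 22, 26 and 30 CpG and the green ones (Sulf2, Gpc5 and Sulf2) at 12, 17 and 26.

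Sulf2, one of the pair of extracellular 6-O-sulfatases, had the most peaks with 500 EMPs and, summed over its peaks, the most covered bases within 3 kb of the start in both libraries. Within 3 kb of its start, 1289 bp lay in peaks with 500 EMPs and 4999 bp with 15000 EMPs, 83.3% of the window. Among all protein-coding genes with a peak in that window, 66.2% had less covered length with 500 EMPs and 84.5% with 15000 EMPs. The 3 peaks of 500 EMPs (350, 532 and 407 bp) lay upstream at -1170 to -821 bp from the start and, in the first intron, at 1200 to 1731 and 2246 to 2652 bp. With 15000 EMPs they fell inside 2 peaks, one of 2929 bp across the start (chr2:166155123-166158051) and one of 2137 bp in the first intron (chr2:166152596-166154732). These were 390 bp apart and together spanned 5456 bp. Ncoa3, which overlaps the 3′ end of Sulf2, was unmarked within 3 kb of its start in both libraries, as were Zmynd8 and Prex1 on either side.

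Sulf1, the other sulfatase, had 385 bp covered near its start with 500 EMPs and 3744 bp with 15000 EMPs, 9.72 times as much. The peak of 500 EMPs lay 1522 to 1906 bp into the gene (chr1:12693799-12694183). With 15000 EMPs a peak of 3433 bp crossed the start (chr1:12691433-12694865), and a narrow one of 311 bp lay 483 bp further upstream. The Sulf1 start is poorer in CpG than that of any other member, with 88 in the 6001 bases around it against 235 at Sulf2. The neighbours on either side had a peak within 3 kb of their starts with 15000 EMPs, where 16.9% of all protein-coding genes did. Slco5a1, a gene of the organic anion transporter family that begins 300373 bp from the Sulf1 start, had 3106 bp covered with 15000 EMPs and none with 500 EMPs. A830018L16Rik on the other side, which begins 1278172 bp from the Sulf1 start, had 432 bp with 500 EMPs and 3397 bp with 15000 EMPs.

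Gpc1, the glypican with the shortest gene among those marked at the start (29135 bp), had 708 bp covered with 500 EMPs and 3348 bp with 15000 EMPs. Its peak of 500 EMPs, the widest of the 8, lay 665 to 1372 bp downstream of the start in the first intron (chr1:92832310-92833017), and 75.9% of the list was narrower. The peak of 15000 EMPs ran across the start (chr1:92830350-92833697) and held 5.47 CpG per 100 bp, the highest density among the 13 peaks of that library. Gpc1 was also the one member with a peak inside the gene but more than 5 kb from the start. That peak of 2962 bp (chr1:92847030-92849991) lay in the first intron and was seen only with 15000 EMPs. The deposited annotation gave it to the microRNA gene Mir149, which lies inside Gpc1 at a deposited distance of 385 bp, so a search of the annotation for Gpc1 does not find it. It held 2.19 CpG per 100 bp, less than the peak at the start. The neighbours Ankmy1, Otos and Dusp28 had no peak within 3 kb of their starts.

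Gpc5 and Gpc6 lie next to each other on chromosome 14 and are among the longest genes of the genome, at 1432965 and 1051230 bp. At Gpc5, 137 bp was covered near the start with 500 EMPs and 2624 bp with 15000 EMPs, the largest ratio (19.2) among the 5 members with covered bases there in both libraries. The peak of 500 EMPs was as narrow as any in the list, a width it shared with 1759 peaks in all, and the result for Gpc5 with 500 EMPs rests on it alone. It lay 1307 to 1443 bp into the gene, inside the peak of 15000 EMPs (chr14:115091935-115094558), and it held 1 CpG. It is printed to show the whole of that evidence.
Gpc5 peak of 500 EMPs, chr14:115093522-115093658, plus strand: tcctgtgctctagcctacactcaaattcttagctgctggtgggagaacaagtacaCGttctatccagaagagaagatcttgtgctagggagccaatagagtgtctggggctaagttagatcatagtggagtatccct

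At Gpc6 the peak of 500 EMPs (187 bp, chr14:116928340-116928526) began 3025 bp past the start, just outside the 3 kb limit, so Gpc6 counted as unmarked with 500 EMPs by 25 bp. With 15000 EMPs, peaks of 1097 and 904 bp lay 254 bp apart in the second intron, from 1249 to 3503 bp past the start, and 1498 bp lay within 3 kb. The peak nearer the start held 4.83 CpG per 100 bp and no 500-EMP peak, while the farther one held 1.33 and contained the 500-EMP peak. Outside the pair, Tpm3-rs7 and Dct were unmarked at their starts. In both genes no further peak was found in the gene body beyond 5 kb of the start, and peaks covered 0.164% of Gpc5 and 0.19% of Gpc6 with 15000 EMPs. This was common among long genes. Of 567 protein-coding genes over 300 kb, 53.1% had a peak within 3 kb of the start with 15000 EMPs, and 66.8% of those had no other peak in the gene beyond 5 kb.

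Gpc3 and Gpc4 are neighbours on the X chromosome, 107174 bp apart. Gpc3, whose loss causes the overgrowth of Simpson-Golabi-Behmel syndrome in humans, had its nearest 500-EMP peak 450407 bp from its start, and with 15000 EMPs one peak of 442 bp in the first intron (chrX:52612155-52612596). Gpc4 had 209 bp covered with 500 EMPs and 1164 bp with 15000 EMPs. On the X chromosome 4.64% of protein-coding genes had a peak within 3 kb of the start with 500 EMPs and 9.6% with 15000 EMPs, less than over all chromosomes. The genes beyond the pair, Ccdc160 and 1700080O16Rik, had no start peak. The methods state that mice of both sexes were used, and the sex of the embryos in each library is not given in the sources used here.

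The peaks of Gpc4 did not meet. Its 500-EMP peak (chrX:52163335-52163543) lay in the 371-bp gap between the 15000-EMP peaks of 521 and 643 bp, 143 bp from one and 19 bp from the other. It was the 1 of 8 member peaks of 500 EMPs that overlapped no peak of 15000 EMPs.
Gpc4 peak of 500 EMPs, chrX:52163335-52163543, minus strand: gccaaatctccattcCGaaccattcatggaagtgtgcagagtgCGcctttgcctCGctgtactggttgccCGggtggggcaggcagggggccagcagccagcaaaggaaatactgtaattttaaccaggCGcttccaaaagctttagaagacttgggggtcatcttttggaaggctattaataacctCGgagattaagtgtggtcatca
It held 6 CpG dinucleotides. The other 7 peaks overlapped, a share of 87.5% (95% Wilson interval 52.9 to 97.8, counting error only), and over the whole list 91.2% did. On the X chromosome the share of all 500-EMP peaks was 51.6%. Of 896 peaks of 500 EMPs with no counterpart, 105 (11.7%) lay like that of Gpc4, with a 15000-EMP peak within 500 bp on both sides.

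Gpc2, known from developing neurons, was the least marked member. The peak nearest its start lay 472987 bp away with 500 EMPs and 6702 bp away with 15000 EMPs. That peak (1789 bp, chr5:138271515-138273303) lay downstream of the 3′ end of Gpc2 and across the start of Gal3st4, a Golgi sulfotransferase gene, to which the deposited annotation assigned it. No row of the annotation named Gpc2 in either library. Gm43720, a gene model that begins 47 bp from the Gpc2 start and overlaps it, had no start peak. Stag3, which starts 235 bp from Gpc2 in the opposite direction, had no peak within 3 kb of its own start. The single peak that makes Gpc2 a marked gene within 10 kb was therefore at the start of another gene.

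**Figure D3:**
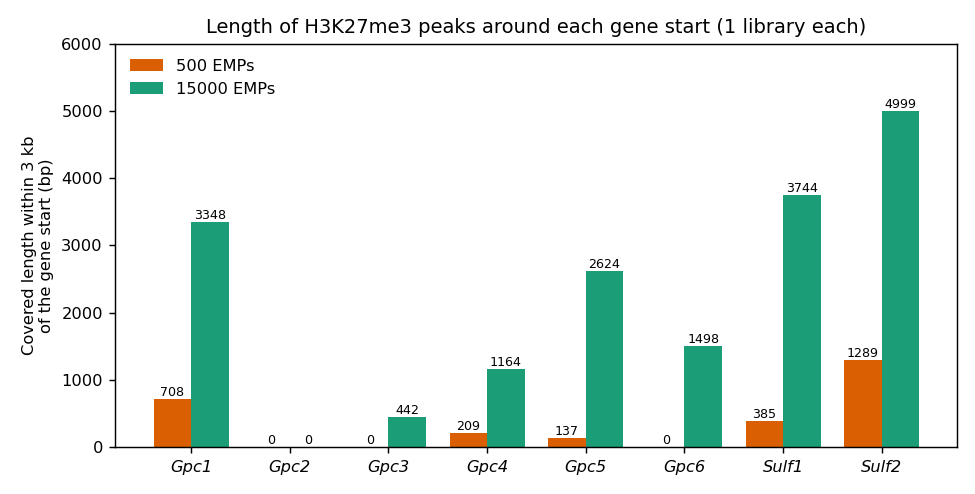
Length in bp lying in peaks within 3 kb either side of each gene start (y axis), for 500 EMPs (orange) and 15000 EMPs (green), 1 library per bar and so without error bars. Green exceeds orange at 7 genes, from 442 bp at Gpc3 to 4999 bp at Sulf2, and Gpc2 is at 0 in both.

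Summed over the 8 genes, 2728 bp lay in peaks within 3 kb of the starts with 500 EMPs and 17819 bp with 15000 EMPs. The order of the genes was similar but not the same. With 500 EMPs it ran Sulf2, Gpc1, Sulf1, Gpc4, Gpc5, and with 15000 EMPs Sulf2, Sulf1, Gpc1, Gpc5, Gpc6, Gpc4, Gpc3. With 1 library each, which neighbours in these orders differ beyond their spread cannot be said. The median over the members with a start peak was 385 bp with 500 EMPs, where the median over all marked protein-coding genes was 789 bp. With 15000 EMPs it was 2624 bp, against 2743 bp.

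By position, all 7 members with a start peak in 15000 EMPs had the stretch from 1400 to 1600 bp past the start wholly in a peak. This stretch was picked because it was the highest of 30 bins. Over all 3728 marked protein-coding genes, 63.7% of its bases lay in peaks, and the highest bin was nearer the start, at 68.5%. In the first 200 bp of the gene the shares were 57.1% for the members and 50.9% for all marked genes. With 500 EMPs the highest bin of the members ran from 1200 to 1400 bp, at 46.6%, and all marked genes were highest in the same bin, at 28.9%. In the first 200 bp the 5 members with a start peak had none, and all 2177 marked genes had 13.1%.

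**Figure D4:**
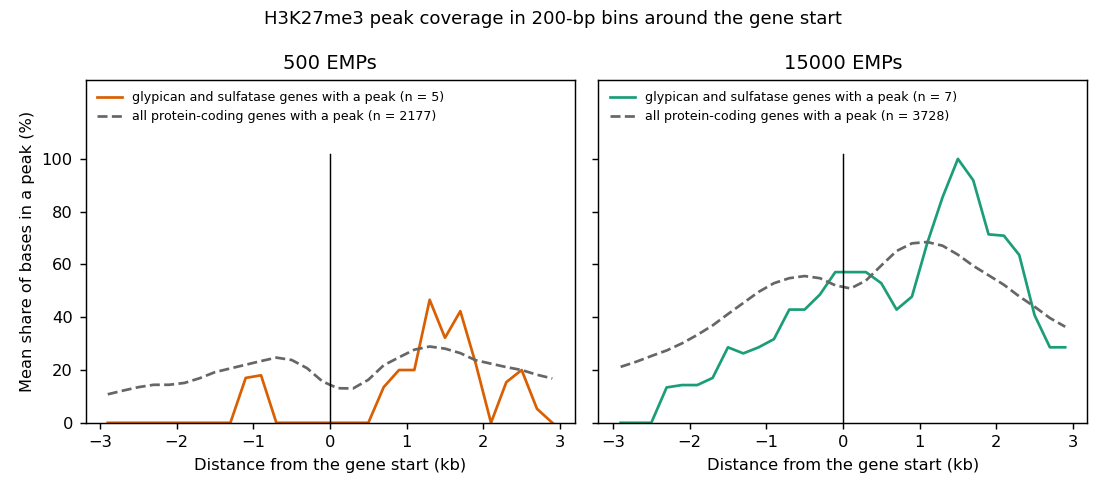
Mean share of bases in a peak (%, y axis) in 200-bp bins by distance from the gene start (kb, x axis), for glypican and sulfatase genes with a peak within 3 kb (solid) and all protein-coding genes with one (dashed), in each library. With 15000 EMPs the solid line reaches its top (every base in a peak) between 1400 and 1600 bp, where the dashed line is at 63.7%.

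The stretches that 500-EMP peaks covered inside wider 15000-EMP peaks were mostly not their CpG-richest parts. At Gpc5 the stretch held 0.73 CpG per 100 bp and the rest of the 15000-EMP peak 4.1. At Sulf1 the values were 0.519 and 2.0, and at the peak across the Sulf2 start 0.571 and 3.41. Only the intronic peak of Sulf2 was denser inside these stretches, at 3.62 against 3.01, and Gpc1 was nearly even (5.37 and 5.49). Over all 4866 peaks of 15000 EMPs that held such a stretch and some other bases, 35.7% were denser inside, beside 1 of 6 at the members (Gpc6 held 1.07 and 1.39). The 13 member peaks of 15000 EMPs had a median of 3.07 CpG per 100 bp, and all peaks of that list 1.62. With 500 EMPs the medians stood the other way, at 1.03 for the 8 member peaks and 1.49 for all peaks. The member peaks were collected in or near genes and the lists hold all peaks. No median over start peaks alone stands beside them, so the contrast is not a trait of these genes.

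In the other direction, 6 of the 13 member peaks of 15000 EMPs (46.2%) held a peak of 500 EMPs, and 32.2% of the whole list did. The 95% Wilson interval was 23.2 to 70.9, counting error only. It treats the peaks as independent, though several lay at the same gene. The peaks without one were those of Gpc2 and Gpc3, both of Gpc4, the intragenic peak of Gpc1, the peak of Gpc6 nearer the start and the upstream peak of Sulf1.

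The genes most alike in their coverage around the start were looked up among 2155 protein-coding genes with a start peak in both libraries. Likeness was the mean absolute difference in covered fraction over 30 bins of 200 bp in each library, 60 values in all, where 0 is identical. For Gpc5 the nearest were Lefty2 and Odf3b (0.0398 and 0.0442), against a median of 0.285 over all genes. For Gpc4 they were Rbfox2 and Mid2 (0.0478 and 0.0747, median 0.355). For Gpc1 they were Loxl1 and Prr36 (0.0603 and 0.0623, median 0.292), and for Sulf1 Tigd4 and Scd1 (0.0648 and 0.065, median 0.267). Sulf2 had no close match, with Dmrt1 and Adamtsl5 at 0.121 and 0.127 (median 0.329). No member was among another member's nearest.

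The other genes of heparan sulfate biology were grouped by step, a division set with earlier results of these data known and not found in them. Peaks lay within 3 kb of 11 of 39 such genes with 500 EMPs (28.2%) and of 16 with 15000 EMPs (41.0%), against 9.69% and 16.6% of all protein-coding genes. The O-sulfotransferases, which add sulfate groups to the sugar chain, held 7 of the 11 and 8 of the 16. These were Hs6st3, Hs3st2, Hs3st3a1, Hs3st3b1, Hs3st4, Hs3st5 and Hs3st6 in both libraries and the X-linked Hs6st2 with 15000 EMPs, where the 500-EMP peak missed the limit by 55 bp. Hs2st1, Hs6st1 and Hs3st1 had none within that distance. The most covered bases among them were at Hs3st3b1, with 2221 and 5158 bp within 3 kb of the start. The 6-O-sulfotransferases add the group that Sulf1 and Sulf2 remove, and Hs6st3 had 745 bp covered with 500 EMPs and 4463 bp with 15000 EMPs. At a limit of 1 kb by the deposited distance, 6 of the 39 genes had a peak with 500 EMPs and 15 with 15000 EMPs. All protein-coding genes stood at 7.41% and 14.9% at that limit. These shares were not tested.

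Of the 11 enzymes that make the linker or lengthen the chain, 0 had a peak within 3 kb with 500 EMPs and 1 with 15000 EMPs (9.09%), beside the 9.69% and 16.6% of all protein-coding genes. None of the 5 chain polymerase genes (Ext1, Ext2 and Extl1 to Extl3) had one within 3 kb, and the deposited annotation put a peak further inside Extl1 in both libraries and inside Extl3 with 15000 EMPs. Of the 6 enzymes that make the linker to the core protein, Xylt1 had one within 3 kb with 15000 EMPs. Of the deacetylase-sulfotransferases and the epimerase, which modify the growing chain, Ndst3 had one in both (470 and 2794 bp) and the other 4 had none within 3 kb. The remaining core proteins were marked at Sdc4 in both libraries (611 and 4247 bp), and at Sdc3, Agrn and Col18a1 with 15000 EMPs, with 515 to 2652 bp. Notum, the secreted enzyme that strips the lipid from Wnt proteins, had 1049 and 5493 bp. Hpse2, a relative of heparanase, had 1570 and 4585 bp, while Hpse and Gpld1 had none within 3 kb.

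**Figure D5:**
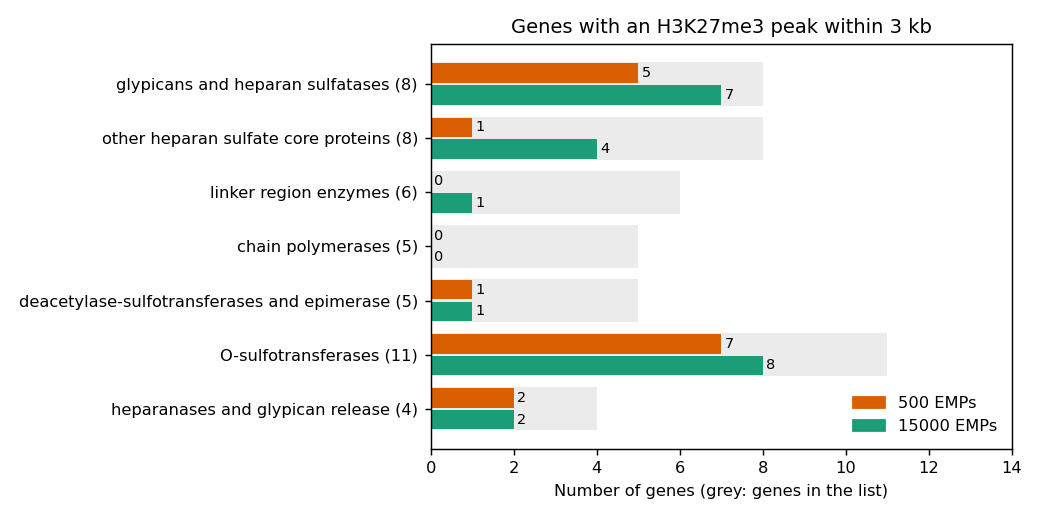
Number of genes with a peak within 3 kb (x axis) with 500 EMPs (orange) and 15000 EMPs (green) in each group of heparan sulfate genes, whose size is the grey bar and the number in brackets. Glypicans and sulfatases (5 and 7 of 8) and O-sulfotransferases (7 and 8 of 11) hold most of the marked genes, and the chain polymerases hold none within 3 kb.

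For the labelled cell type, none of 9 EMP marker genes (among them Kit, Itga2b, Runx1 and Spi1) had a peak within 3 kb in either library, where 9.69% and 16.6% of all protein-coding genes did. Of 5 endothelial markers Kdr had one with 15000 EMPs, of 5 yolk sac endoderm markers Foxa2 had one in both, and all 5 mesenchymal markers had one in both. Absence of this mark does not measure expression, and the share of other cells in the sorted samples was not tested.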

How the data were processed

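H3K27me3 CUT&RUN libraries of 500 and 15000 EMPs (1 each) were used. Per the labels and methods, the authors aligned reads to mm10 with Bowtie2 2.2.1, handled alignments with SAMtools 1.9, called broad peaks against IgG with MACS2 2.1.2 and annotated them with ChIPpeakAnno; the labels also name deepTools 3.5.1. The deposited lists hold peak positions and the deposited annotation the nearest gene and distance, with no scores or reads. The methods give P thresholds of 0.01 (500 EMPs) and 0.05 (15000 EMPs), and commands printed elsewhere in the study swap the libraries. The labels and the methods name different library kits. Peaks were matched to GENCODE vM21 genes of GRCm38 (first base of the gene as its start), and a 1-bp overlap counted as shared. Exons follow the longest principal transcript. Members, gene groups and markers were chosen with earlier results of these data known. All members were described, with marked genes of each group named and the nearest protein-coding gene on each side. Interval code was checked on simulated peaks. Python 3.11.15, NumPy 2.4.6, SciPy 1.17.1 and pysam 0.24.0 were used. Alternatives were other distances, widths, joining and overlap rules.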

Additional observations from a re-analysis of the deposited data

How the results depend on the processing

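Of 51 alternatives to 15 counts, lengths and shares, 42 stayed within the set bounds (1.5 times the count or length, or the Wilson interval of the share). A limit of 1 kb in place of 3 kb changed most of the rest. With 500 EMPs it left 2 members by the deposited distance and 2 by the gene start (Gpc1 and Sulf2), 516 bp in all and 6 of the 11 other heparan sulfate genes. With 15000 EMPs it left 4 members by either measure (Gpc1, Gpc5, Sulf1 and Sulf2) and 6738 bp. The share of 500-EMP member peaks overlapping a 15000-EMP peak was 100% once peaks within 3 kb were joined, and 0.0% where at least 50% of both peaks had to be shared. For single genes, 13 of 26 covered lengths moved by over 1.5 times with the window. Leaving out peaks of the smallest width removed Gpc5 with 500 EMPs. No paired analysis was possible because each group had 1 library. Without read counts, a gene with no peak cannot be told from one below the caller's threshold.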
